A study of Homo sapiens with 16 samples.

Results

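The MYOD1 locus was followed as the open regions that overlap a window of 110 kb on chromosome 11 (hg19), from 51.1 kb before the start of MYOD1 to 58.9 kb after it. The gene body takes up 2.57 kb of this window. ATAC-seq, in which a transposase cuts accessible DNA and tags it for sequencing, was used to read chromatin accessibility in Rh30 cells, a human alveolar rhabdomyosarcoma line driven by the fusion protein PAX3-FOXO1. The window holds 28 of the 97793 regions counted in the study: 16 of 56949 in experiment 6086 and 12 of 40844 in experiment 6211. All cells carried PAX3-FOXO1 fused to FKBP, a tag through which the degrader dTAG47 recruits a ubiquitin ligase. They received 500 nM dTAG47 for 2, 4 or 24 h in experiment 6086 and for 0.5, 1 or 2 h in experiment 6211, and each experiment had its own DMSO group, for which the labels give no duration. Each of the 8 groups had 2 libraries, called A and B. The labels do not say whether these came from separate cultures or whether the line is a single clone, so p-values speak only to the spread between these libraries, part or all of which could be technical. Library totals ran from 18038062 to 31308682 reads in regions in 6086 and from 9934147 to 18275976 in 6211, and the MYOD1 regions held 45 to 2953 and 169 to 2426 reads per library in those tables. The fusion itself was not measured in these files, the tables carry no gene names with which to check the cell line, and every group carries the tag, so loss of the fusion and other effects of dTAG47 cannot be told apart.

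MYOD1 encodes a basic helix-loop-helix transcription factor that commits cells to the skeletal muscle lineage and binds E-box sequences at muscle genes. It is a diagnostic marker of rhabdomyosarcoma, whose cells express myogenic factors without completing muscle differentiation. Transcription of MYOD1 is known to be controlled by a promoter together with a core enhancer far upstream and a distal regulatory region closer to the gene. PAX3-FOXO1 joins the DNA-binding domains of PAX3, which acts upstream of MYOD1 in the embryo, to the activation domain of FOXO1, and is known to bind mostly at enhancers away from promoters. In the RefSeq gene table (GRCh38.p14, used for gene order only), the long non-coding RNA gene LINC02729 comes before MYOD1 and the potassium channel gene KCNC1 after it.

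The locus was a dense row of open sites. In experiment 6086, 9 of the 16 regions were centred upstream of the MYOD1 start and 7 downstream, and they covered 12501 bp, which is 11.4% of the window. The region at the MYOD1 start had 16 regions, itself included, centred within 55 kb, against a median of 5 over all regions. Levels are given as CPM (reads of a region, scaled by the TMM-adjusted total of its library), and are compared between regions only per kb of region, because widths ran from 130 to 1785 bp. Per kb, the most accessible site of the locus in both tables lay far upstream: chr11:17709403-17710306, centred 31.3 kb before the start, averaged 101 CPM per kb over the 8 libraries of 6086, at percentile 99.5 of all regions. It was followed by chr11:17735477-17736477, 5.13 kb upstream, at 87.8 CPM per kb. The region spanning the start itself, chr11:17740432-17742160, averaged 52.9 CPM per kb, at percentile 88.9. The regions centred 5.13 and 20.0 kb upstream lie at about the distances at which the distal regulatory region and the core enhancer have been described, although which elements they contain was not examined. Experiment 6211 held 12 regions of 401 bp each, each overlapping 1 region of 6086, of which it covered between 22.5% and 75.5%. The 4 regions of 6086 without a counterpart were narrow (130 to 181 bp). Levels were therefore compared within a table only.

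**Figure D1:**
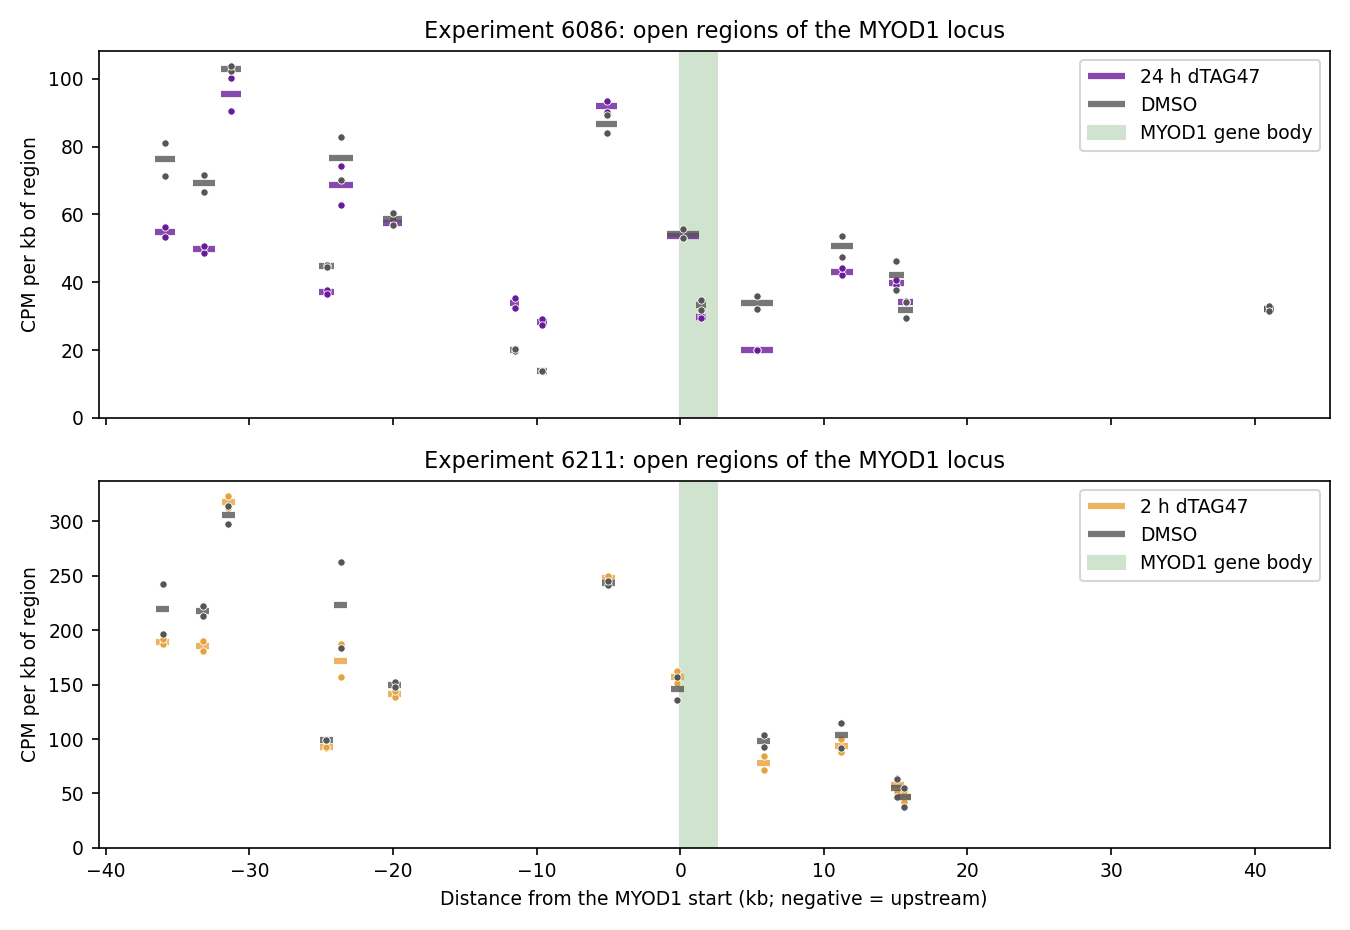
Accessibility along the MYOD1 locus in CPM per kb of region (vertical axis) against distance from the MYOD1 start in kb (horizontal axis). Horizontal bars are group means drawn over each region's span, points are the 2 libraries, and the green band is the gene body. In 6086 the 24 h bars lie clearly below DMSO at 35.9 and 33.2 kb upstream and 5.34 kb downstream and above it at 11.5 and 9.62 kb upstream, while the bars at the start nearly coincide.

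Accessibility was lower in cells treated with dTAG47 at selected flanking sites, while the start of the gene passed no test. In experiment 6086, with 16 of 16 regions tested, 4 regions fell at 2 h (25.0%, against 4.25% of all regions tested), 5 at 4 h (31.2%, against 5.44%) and 6 at 24 h (37.5%, against 18.6%). The 16 regions had a median width of 862 bp, against 320 bp over all regions of 6086. The shares are therefore not matched for width or reads, and small changes are called more easily where reads are many. No region rose at 2 h or 4 h in edgeR (0.978% and 1.75% of all regions did), with 0 at an unadjusted p under 0.05 and 0 in DESeq2 at either time. At 24 h 2 rose (12.5%, against 13.6% of all regions). Calls were made at an adjusted p under 0.05, from the quasi-likelihood test of edgeR adjusted by Benjamini and Hochberg's method over every region of the table. Between 2 and 24 h, tested directly, 4 regions fell (25.0%, against 17.6% of all regions) and 2 rose (12.5%, against 12.8%). The 3 comparisons share their DMSO libraries and are not independent. The median log2 change over the 16 regions was -0.08 at 2 h, -0.08 at 4 h and -0.10 at 24 h, against 0.0017, 0.0063 and -0.0031 over all regions tested. In all, 7 regions fell at some time, 3 of them at each of the 3 times, 2 other regions rose at 24 h and 7 were never called against DMSO. With 2 libraries a group, non-overlap alone is common: both treated libraries lay below both DMSO libraries in 7 of the 16 regions at 2 h, 8 at 4 h and 7 at 24 h, against 22.7%, 22.2% and 32.4% of all regions. They lay above both DMSO libraries in 2, 2 and 3 regions, against 21.4%, 22.4% and 29.5% of all. Between 2 and 24 h, 6 regions lay wholly below (31.5% of all) and 5 wholly above (32.5% of all).

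**Figure D2:**
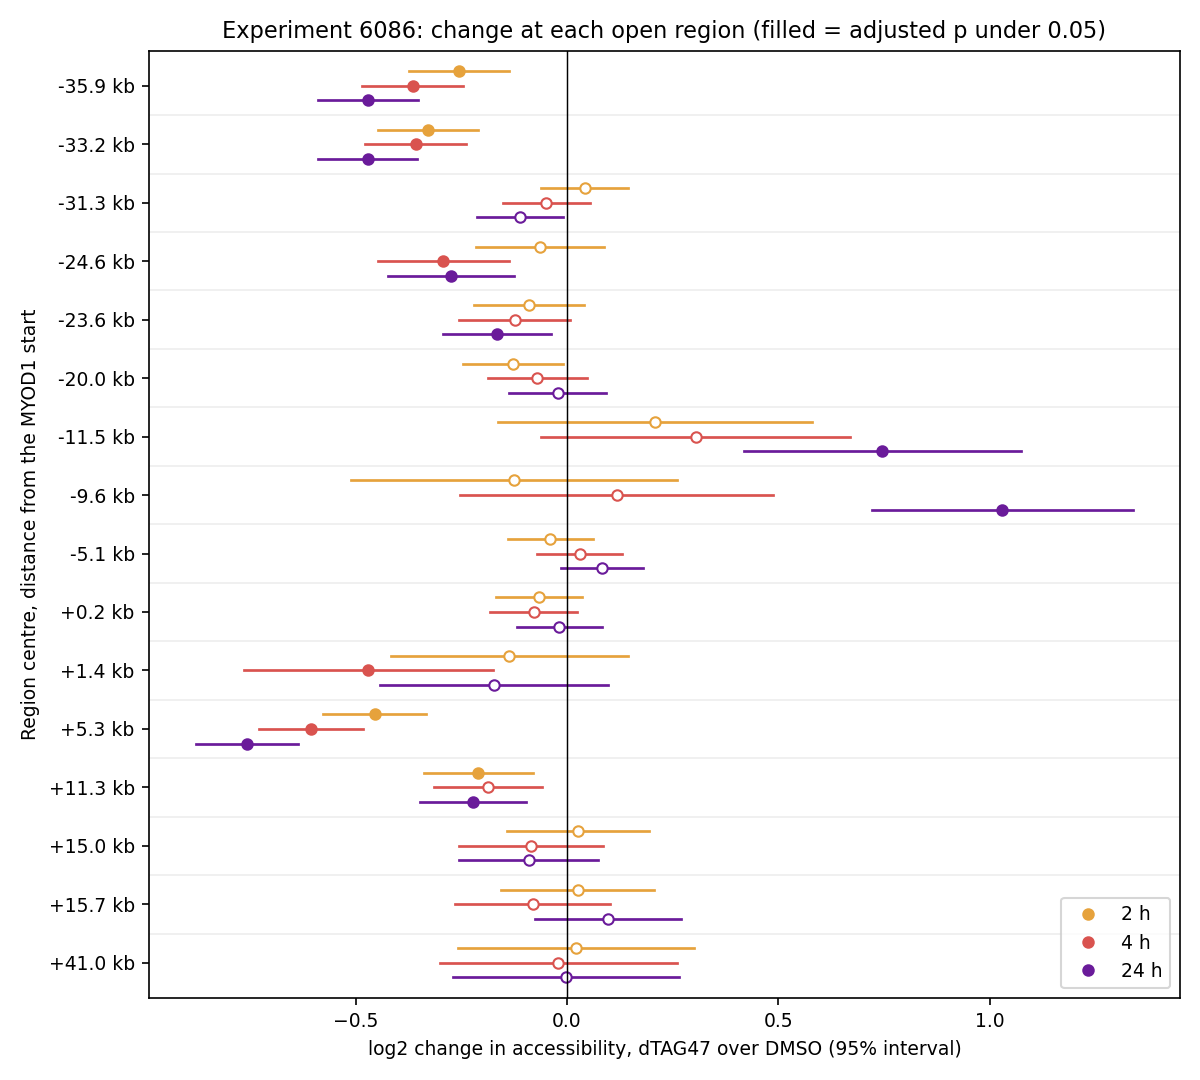
Log2 change of dTAG47 over DMSO at each of the 16 regions of experiment 6086 (horizontal axis, with 95% intervals) by region centre relative to the MYOD1 start (vertical axis), for 2, 4 and 24 h. Filled points passed an adjusted p of 0.05. The region 5.34 kb downstream moved furthest down, to -0.76, and the region 9.62 kb upstream furthest up, to 1.03, while the intervals at the start include 0 at all times.

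The deepest loss lay just past the gene. At chr11:17745554-17747338, a broad region of 1785 bp centred 5.34 kb downstream of the start, the DMSO libraries had 64.0 and 57.2 CPM, the 2 h libraries 43.7 and 44.3, the 4 h libraries 39.0 and 40.2, and the 24 h libraries 35.8 and 35.6. Averaged over its whole width its level was low, at 25.2 CPM per kb over the 8 libraries of 6086, percentile 19.9 of all regions. The 401 bp region of 6211 that lies inside it averaged 85.8 CPM per kb, at percentile 81.8 of all regions of 6211. All libraries with dTAG47 lay below both DMSO libraries, and no group of libraries overlapped another. The mean was 35.7 ± 0.161 CPM at 24 h against 60.6 ± 4.80 CPM in DMSO (SD, n = 2 each), 1.69-fold lower. By edgeR, the log2 change was -0.46 at 2 h (SE 0.06, adjusted p = 1.2e-06), -0.61 at 4 h (SE 0.06, adjusted p = 2.3e-09) and -0.76 at 24 h (SE 0.06, adjusted p = 2.3e-12). The step between 2 and 24 h, tested directly, was -0.30 (SE 0.06, adjusted p = 0.00019 in edgeR). Among all 56945 regions tested the change stood at percentile 2.86 at 2 h, 2.27 at 4 h and 3.98 at 24 h, counted from the strongest loss. This region kept its call in each comparison with DMSO under all 10 alternative settings, with log2 changes between -0.84 and -0.68 at 24 h.

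A pair of neighbouring sites at the far upstream edge fell together. At chr11:17704758-17705642, centred 35.9 kb upstream, accessibility was 71.8 and 63.2 CPM in DMSO, 56.1 and 56.6 at 2 h, 53.1 and 51.2 at 4 h, and 47.2 and 49.7 at 24 h. At chr11:17707460-17708442, centred 33.2 kb upstream, it was 70.5 and 65.5 CPM in DMSO, 57.1 and 50.9 at 2 h, 52.6 and 53.2 at 4 h, and 47.9 and 49.9 at 24 h. In both sites every dTAG47 library lay below both DMSO libraries. After 24 h each was 1.39-fold lower, with a log2 change of -0.47 (SE 0.06, edgeR adjusted p = 4.8e-08 for the outer site and 4.5e-08 for the inner one). Both 24 h changes stood at percentile 9.64 of all regions tested, counted from the strongest loss. At 2 h the changes were -0.26 (SE 0.06, edgeR adjusted p = 0.0040) and -0.33 (SE 0.06, edgeR adjusted p = 0.00017). At the outer site the 2 h call did not hold in DESeq2 (adjusted p = 0.052) or with DMSO library A (log2 change -0.17, adjusted p = 0.15) or 2 h library A (adjusted p = 0.082) left out, while its 4 h and 24 h calls held in every setting, as did the inner site's calls at 2, 4 and 24 h. Between 2 and 24 h the outer site lost a further 0.22 (log2 change -0.22, SE 0.06, edgeR adjusted p = 0.0040), a call lost when 24 h library A was left out (adjusted p = 0.074). The inner site's further change of -0.14 missed the threshold (SE 0.06, edgeR adjusted p = 0.060), and passed with only the compared groups in the fit (log2 change -0.15, adjusted p = 0.020) and without 2 h library B (-0.22, adjusted p = 0.019).

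**Figure D3:**
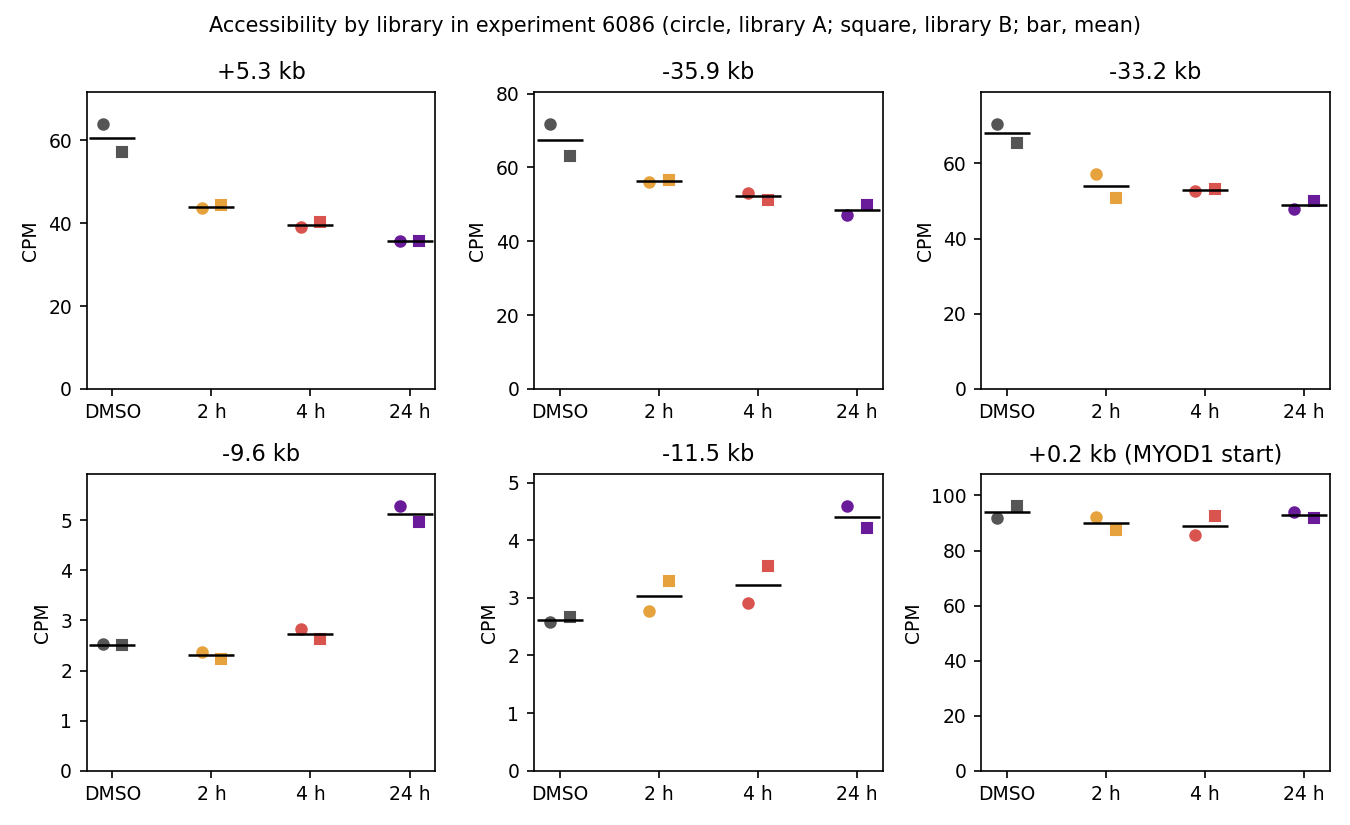
CPM by library (vertical axes, starting at 0) in DMSO and after 2, 4 and 24 h of dTAG47 (horizontal axes) for 6 regions of experiment 6086, titled by distance from the MYOD1 start. Circles are library A, squares library B and bars the group means. In the region 5.34 kb downstream the 2 h libraries already lie below DMSO, the regions 9.62 and 11.5 kb upstream average 5.13 and 4.41 CPM at 24 h, and the start region lies between 85.7 and 96.3 CPM throughout.

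No change was detected over the start of MYOD1. The region over the promoter and the first part of the gene, chr11:17740432-17742160, had 91.6 and 96.3 CPM in DMSO, 92.2 and 87.6 at 2 h, 85.7 and 92.4 at 4 h, and 94.0 and 91.9 at 24 h. The libraries of all times overlapped those of DMSO. Its log2 change was -0.07 at 2 h (95% interval -0.17 to 0.04, edgeR adjusted p = 0.57), -0.08 at 4 h (-0.18 to 0.02, adjusted p = 0.46) and -0.02 at 24 h (-0.12 to 0.08, adjusted p = 0.83). The interval at 24 h leaves room for a change down to -0.12 on the log2 scale, whereas the interval at 24 h of the region 5.34 kb downstream ran from -0.88 to -0.64. With library size alone as the scale the 24 h value was 0.01 (adjusted p = 0.91). A second, narrow site inside the gene body, chr11:17742460-17742635, had 5.60 and 6.14 CPM in DMSO, 4.73 and 6.04 at 2 h, 4.55 and 4.00 at 4 h and 5.33 and 5.16 at 24 h. It passed the threshold at 4 h only (log2 change -0.47, SE 0.145, edgeR adjusted p = 0.040), with the other times at -0.14 (adjusted p = 0.70) and -0.17 (adjusted p = 0.36). That single call was lost in 6 of the 10 alternative settings, among them without DMSO library B (adjusted p = 0.23), without 4 h library A (0.077) or B (0.34) and in DESeq2 (0.38), and whether the region is exonic or intronic was not looked up because no annotation on hg19 was used.

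Upstream sites at about the distances of the known control elements passed no test against DMSO in 6086. Neither did the most accessible site, 31.3 kb upstream, which was not matched to a known element. At chr11:17735477-17736477, 5.13 kb upstream, 24 h libraries had 90.3 and 93.6 CPM and DMSO libraries 84.0 and 89.3, so both 24 h libraries were slightly higher. The log2 change was -0.04 at 2 h, 0.03 at 4 h and 0.08 at 24 h (95% interval at 24 h -0.02 to 0.18, edgeR adjusted p = 0.21). Its step of 0.12 between 2 and 24 h just missed the threshold (adjusted p = 0.051) and passed with library size alone as the scale (0.026) and with only the compared groups in the fit (0.031). At chr11:17720668-17721506, 20.0 kb upstream, 24 h libraries had 47.6 and 49.0 CPM and DMSO libraries 50.6 and 47.8, which overlap. The 2 h libraries (44.6 and 45.2 CPM) and 4 h libraries (45.9 and 47.5 CPM) all lay below DMSO. The changes there were -0.13 at 2 h (95% interval -0.25 to -0.0085, edgeR adjusted p = 0.26), -0.07 at 4 h (adjusted p = 0.60) and -0.02 at 24 h (95% interval -0.14 to 0.09, adjusted p = 0.82). In 6211 every dTAG47 library of the overlapping region chr11:17721030-17721430 lay below both DMSO libraries. Its log2 changes were -0.07, -0.08 and -0.09 at 0.5, 1 and 2 h (edgeR adjusted p = 0.91, 0.65 and 0.57). The most accessible site, chr11:17709403-17710306, had 92.4 and 93.8 CPM in DMSO, 95.4 and 96.3 at 2 h, 88.3 and 91.6 at 4 h, and 81.8 and 90.6 at 24 h. All 4 h and 24 h libraries were below DMSO and both 2 h libraries above it. It passed no comparison with DMSO (log2 change at 24 h -0.11, edgeR adjusted p = 0.091), although it had fallen between 2 and 24 h by 0.15 (log2 change -0.15, SE 0.05, edgeR adjusted p = 0.017), a call that DESeq2 did not make (adjusted p = 0.088) and that was lost without 2 h library A (0.080), 2 h library B (0.10) or 24 h library A (0.37). Against DMSO at 24 h it passed when 24 h library B was left out (log2 change -0.19, adjusted p = 0.025).

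Smaller losses appeared at 3 further sites. In the order given here, their 24 h changes stood at percentiles 17.8, 26.0 and 21.2 of all regions tested, counted from the strongest loss. Losses of this size were thus common at 24 h. At chr11:17716211-17716742, 24.6 kb upstream, DMSO libraries had 24.0 and 23.7 CPM, 2 h libraries 23.3 and 22.3, 4 h libraries 19.4 and 19.5, and 24 h libraries 20.0 and 19.5. The 4 h and 24 h libraries all lay below the others, with log2 changes of -0.06 at 2 h (edgeR adjusted p = 0.74), -0.29 at 4 h (SE 0.08, adjusted p = 0.011) and -0.27 at 24 h (SE 0.07, adjusted p = 0.0036). DESeq2 did not call the 4 h loss (adjusted p = 0.11), which also missed the threshold when either 4 h library was left out (0.089 and 0.088), while the 24 h call held throughout. Its step between 2 and 24 h of -0.21 (SE 0.07, edgeR adjusted p = 0.026) was lost in DESeq2 (0.16) and with any 1 of its 4 libraries left out (0.057 to 0.19). Its immediate neighbour, chr11:17716911-17718043, passed the threshold at 24 h (log2 change -0.17, SE 0.06, edgeR adjusted p = 0.043) even though its libraries overlapped, with 84.2 and 71.3 CPM at 24 h and 79.5 and 93.9 CPM in DMSO. Without DMSO library B that change was -0.03 (adjusted p = 0.81), without 24 h library B -0.05 (adjusted p = 0.70), and DESeq2 did not call it (0.47). Its 4 h change of -0.12 (edgeR adjusted p = 0.32) was -0.23 without DMSO library A (adjusted p = 0.010). On the other flank, chr11:17751878-17752900, 11.3 kb downstream, had 54.8 and 48.6 CPM in DMSO, 42.5 and 46.5 at 2 h, 45.8 and 44.7 at 4 h and 43.1 and 45.1 at 24 h. All its dTAG47 libraries were below DMSO, and its log2 change was -0.21 at 2 h (SE 0.06, edgeR adjusted p = 0.043), -0.19 at 4 h (SE 0.06, adjusted p = 0.069) and -0.22 at 24 h (SE 0.06, adjusted p = 0.0045). The 2 h call held in 3 of 10 settings. Without DMSO library A the 2 h change was -0.13 (adjusted p = 0.42), and without 2 h library A it was -0.15 (adjusted p = 0.49). The 24 h call did not hold with DMSO library A (log2 change -0.14, adjusted p = 0.11) or 24 h library A (adjusted p = 0.064) left out. The 4 h change passed when DMSO library B was left out (log2 change -0.28, adjusted p = 0.0049).

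The 2 gains at 24 h were at a pair of narrow sites with few reads that lie between the 20.0 kb and 5.13 kb sites. At chr11:17731403-17731583, 181 bp wide and 9.62 kb upstream, the libraries had 2.52 and 2.50 CPM in DMSO, 2.37 and 2.24 at 2 h, 2.82 and 2.64 at 4 h, and 5.29 and 4.97 at 24 h. The 24 h counts were 161 and 157 reads, against 45 and 64 reads in DMSO. Accessibility was 2.04-fold higher at 24 h (log2 change 1.03, SE 0.15, edgeR adjusted p = 1.5e-06), at percentile 99.6 of all changes, and the step from 2 to 24 h was 1.16 (SE 0.15, adjusted p = 2.6e-07). At chr11:17729502-17729631, 130 bp wide and 11.5 kb upstream, the libraries had 2.58 and 2.66 CPM in DMSO, 2.78 and 3.29 at 2 h, 2.91 and 3.56 at 4 h, and 4.60 and 4.21 at 24 h. Its 24 h change was 0.75 (SE 0.16, edgeR adjusted p = 0.00038), with values of 0.21 at 2 h (adjusted p = 0.64) and 0.30 at 4 h (adjusted p = 0.41) that missed the threshold. Both 24 h gains over DMSO held in all 10 settings. At the second site the step between 2 and 24 h (log2 change 0.54, SE 0.15, edgeR adjusted p = 0.0061) was not called by DESeq2 (adjusted p = 0.13) or when 2 h library A (0.11) or 24 h library A (0.068) was left out. Even at 24 h the first had 29.2 and 27.5 CPM per kb, below the 54.4 and 53.2 CPM per kb of the start region in the same libraries. Neither site has a counterpart in 6211, which had no 24 h group. Over the 8 libraries of 6086 the first averaged 17.5 CPM per kb and the second 25.6, at percentiles 4.31 and 21.2 of all regions. Which libraries were used to define the regions of 6086 was not examined, so a dependence of these 2 sites on the 24 h libraries was not tested.

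The 3 remaining regions, all downstream, passed no test. The neighbouring sites chr11:17755882-17756412 and chr11:17756552-17757055, 15.0 and 15.7 kb downstream, had log2 changes between -0.09 and 0.10 over the 3 times. Without DMSO library A the first was called lower at 24 h (log2 change -0.21, adjusted p = 0.049 in edgeR). The last site, chr11:17782023-17782187, stands alone 41.0 kb downstream, after a gap of 24967 bp without a counted region. Its values ran from 4.72 to 5.77 CPM over the 8 libraries, and its change at 24 h was -0.0021 (95% interval -0.27 to 0.27, edgeR adjusted p = 0.99).

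Experiment 6211 covered earlier times, with fewer calls. Most of its libraries held fewer reads, and edgeR's common coefficient of variation was larger (5.96%, against 3.48% in 6086). Yet at 2 h, the time that both experiments share, 4.92% of all regions fell and 1.97% rose in 6211, against 4.25% and 0.978% in 6086. What lies behind the fewer calls at this locus was not tested. After 0.5 h none of the 12 regions was called in edgeR (0.00735% of all regions fell and 0% rose), with 0 at an unadjusted p under 0.05 and 0 in DESeq2. After 1 h again 0 were called (2.47% of all fell and 0.22% rose), with 2 lower and 1 higher at an unadjusted p under 0.05 and 0 in DESeq2. At 2 h 1 region fell (8.33%, against 4.92% of all) and 0 rose (1.97% of all), with 4 lower and 0 higher at an unadjusted p under 0.05 and 0 called in DESeq2. The called region, chr11:17746723-17747123, lies inside the broad region that led the losses in 6086. Its libraries had 41.5 and 37.3 CPM in DMSO, 36.5 and 33.0 at 0.5 h, 31.8 and 32.3 at 1 h, and 28.9 and 33.7 at 2 h. Every dTAG47 library was below both DMSO libraries, and the log2 changes were -0.18 at 0.5 h (SE 0.10, edgeR adjusted p = 0.79), -0.30 at 1 h (SE 0.10, adjusted p = 0.11) and -0.34 at 2 h (SE 0.10, adjusted p = 0.044). The 2 h call was lost in 5 of 10 settings, including in DESeq2 (adjusted p = 0.20) and with DMSO library A (log2 change -0.26, adjusted p = 0.30) or 2 h library A (-0.23, adjusted p = 0.33) left out. The 1 h change passed without DMSO library B (log2 change -0.37, adjusted p = 0.038). Both libraries were below both DMSO libraries in 3 regions at 0.5 h (19.2% of all), 4 at 1 h (21.3%) and 5 at 2 h (23.8%), and above both in 0 (16.9%), 1 (20.9%) and 1 (25%).

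**Figure D4:**
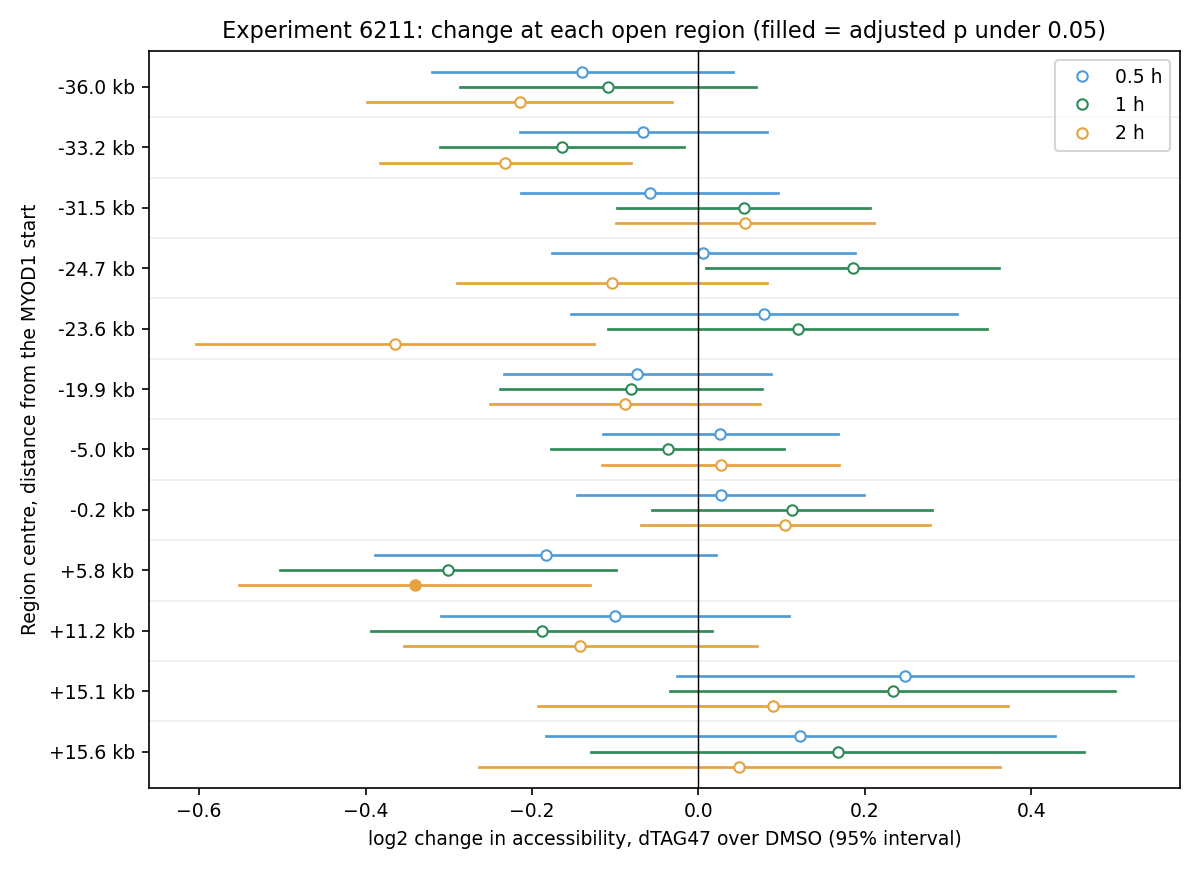
Log2 change of dTAG47 over DMSO at each of the 12 regions of experiment 6211 (horizontal axis, with 95% intervals) by region centre relative to the MYOD1 start (vertical axis), for 0.5, 1 and 2 h. The single filled point, the region 5.81 kb downstream at 2 h, is the only one past an adjusted p of 0.05.

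Upstream in 6211, the site 33.2 kb before the start (chr11:17707673-17708073) had 85.4 and 89.0 CPM in DMSO, 82.0 and 84.6 at 0.5 h, 78.9 and 76.7 at 1 h, and 72.4 and 76.1 at 2 h. All 6 treated libraries were below DMSO, and the 2 h change of -0.23 just missed the threshold (SE 0.07, edgeR adjusted p = 0.057). Its neighbour at 36.0 kb reached -0.21 at 2 h (SE 0.09, edgeR adjusted p = 0.16), and without DMSO library B that value was -0.35 (adjusted p = 0.0080). At the site 23.6 kb upstream (chr11:17717268-17717668) the 2 h libraries had 75.1 and 62.8 CPM, while the DMSO libraries stood far apart at 73.6 and 105 CPM. Its 2 h change of -0.36 (SE 0.12, edgeR adjusted p = 0.059) was -0.61 without DMSO library A (adjusted p = 6.5e-05) and -0.50 without 2 h library A (adjusted p = 0.038). Its 1 h change of 0.12 (edgeR adjusted p = 0.64) was 0.39 without DMSO library B (adjusted p = 0.011). Just before the MYOD1 start, in a region that ends short of it (chr11:17740685-17741085), the libraries had 54.4 and 62.9 CPM in DMSO, 60.2 and 59.0 at 0.5 h, 64.4 and 62.1 at 1 h, and 65.0 and 60.6 at 2 h. The 2 h change there was 0.10 (95% interval -0.07 to 0.28, edgeR adjusted p = 0.52). The most accessible site, chr11:17709428-17709828, had 125 and 129.6 CPM at 2 h, against 119 and 126 CPM in DMSO, which overlap (log2 change 0.06, edgeR adjusted p = 0.73). Between 0.5 and 2 h, 0 of the 12 regions were called in edgeR (1.28% of all fell and 0.147% rose), with 2 lower and 0 higher at an unadjusted p under 0.05 and 0 in DESeq2. The lowest adjusted p of that step was at the 23.6 kb site (log2 change -0.44, edgeR adjusted p = 0.053), which passed with only the compared groups in the fit (0.0010), with median-ratio scaling (0.048) and without 2 h library A (0.033). In that step both 2 h libraries lay below both 0.5 h libraries in 4 regions (22.4% of all) and above them in 2 (22.8%).

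At 2 h the experiments could be set side by side, since they share no library. Of the 12 overlapping pairs, 10 had a 2 h change of the same sign in both, as did 67.4% of all 37318 regions matched by any overlap. The broad downstream region changed by -0.46 in 6086 and by -0.34 in 6211 over the part counted there, the site 33.2 kb upstream by -0.33 and -0.23, and the site 35.9 kb upstream by -0.26 and -0.21. The opposite signs were at the start (-0.07 in 6086 and 0.10 in 6211) and at the 5.13 kb site (-0.04 and 0.03), none of them past the threshold. At the start the 6211 region ends just before the gene and covers only 23.2% of the 6086 region. Only 3 pairs met the 50% reciprocal overlap needed for a formal test of the difference, and 0 of these were called by edgeR, with 0 at an unadjusted p under 0.05 (0 of all 29639 matched regions were called, with 1539 at an unadjusted p under 0.05). Their differences, 6086 minus 6211, were 0.05 (95% interval -0.18 to 0.28) at 24.6 kb upstream, -0.06 (-0.44 to 0.33) at 15.0 kb downstream and -0.02 (-0.44 to 0.40) at 15.7 kb downstream. The 15.0 kb difference ran from -0.28 without 6211 DMSO library B to 0.17 without 6211 DMSO library A, and the 15.7 kb one from -0.31 to 0.26 with the same libraries left out, so that the sign of both turned with 1 library. With any overlap allowed, 12 pairs could be tested and 0 were called by edgeR, with 0 at an unadjusted p under 0.05 (0 of all 37318 regions matched in this way were called, with 1845 at an unadjusted p under 0.05). The difference at the broad downstream region was then -0.10 (95% interval -0.37 to 0.16, adjusted p = 0.96 in edgeR) and for the pair at the start -0.16 (-0.38 to 0.06, adjusted p = 0.94). At the 23.6 kb site, with -0.09 in 6086 and -0.36 in 6211, the difference was 0.29 (-0.07 to 0.64, adjusted p = 0.93 in edgeR).

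**Figure D5:**
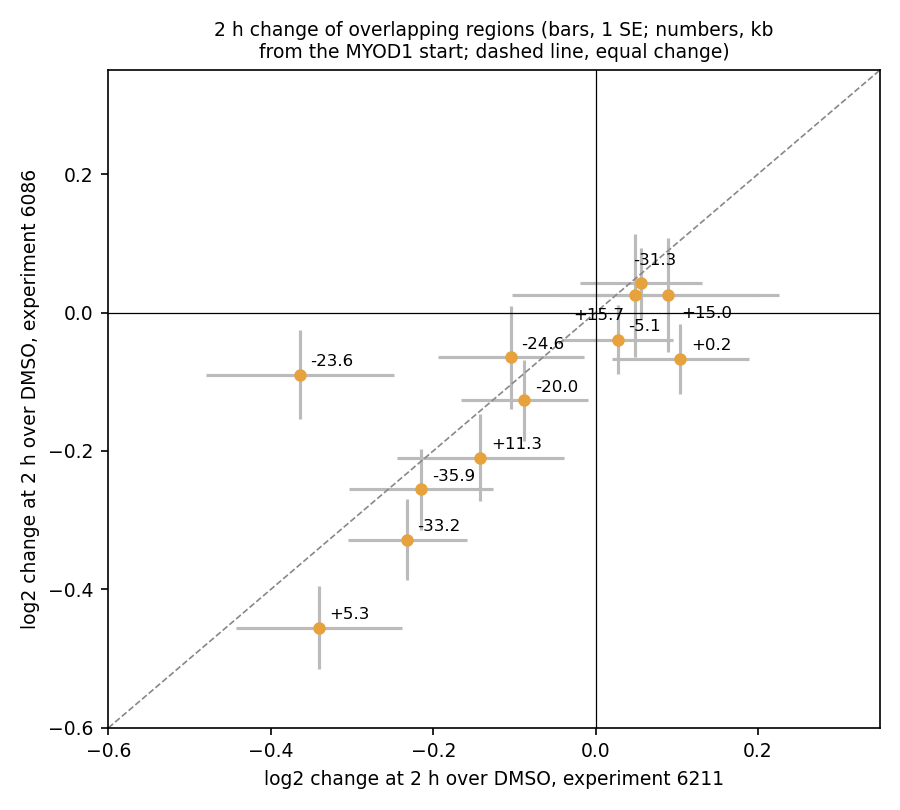
Log2 change at 2 h of dTAG47 over DMSO for the 12 overlapping regions, in experiment 6211 (horizontal axis) and experiment 6086 (vertical axis). Bars are 1 standard error, numbers give kb from the MYOD1 start and the dashed line marks equal change. The regions 5.34 kb downstream and 33.2 and 35.9 kb upstream are low in both, and the region 23.6 kb upstream has -0.36 in 6211 and -0.09 in 6086.

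Summed over the locus, the losses outweighed the gains in these libraries, although no test was run on the sums. The 16 regions of 6086 together had 734 and 738 CPM in DMSO, 680.1 and 668 at 2 h, 649.8 and 662 at 4 h, and 651 and 655 at 24 h, so all treated libraries were below DMSO while the 4 h and 24 h libraries lay in the same range. The 12 regions of 6211 had 749 and 781 CPM in DMSO, 752 and 749 at 0.5 h, 755 and 762 at 1 h, and 719 and 708 at 2 h, and only the 2 h libraries lay below DMSO. A ratio of reads within each library needs no scaling between libraries. For every 100 reads in the start region, the broad downstream region had 38.1 and 38.7 reads at 24 h, against 69.8 and 59.4 in DMSO. The narrow site 9.62 kb upstream had 5.63 and 5.41 at 24 h, against 2.75 and 2.60 in DMSO.

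Regions elsewhere with the most similar time course were sought by the distance between the 3 log2 changes of 6086, among regions with a mean count within 2-fold. For the start region the nearest of 4163 candidates were chr9:34328967-34329898, chr12:2999447-3000742 and chr17:3782459-3783554, at distances of 0.0041 to 0.0063. These distances are far below the SE of the start region's changes (0.05 at each time), none of which was called. This list therefore cannot show a shared time course. For the broad downstream region the nearest of 12862 candidates was chr1:59527582-59528187, with changes of -0.47, -0.62 and -0.77 at 2, 4 and 24 h (distance 0.020), followed by chr9:89517375-89519165 (0.072) and chr7:54842550-54843771 (0.079). The first distance is below the SE of this region's changes (0.06 at each time) and the other distances are close to it. All were picked as the nearest of many, so this list cannot show a shared time course either.

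The authors' deposited tables of the same comparisons list 2 of the 16 regions at an adjusted p under 0.05 at 2 h in 6086, 3 at 4 h (all of them lower at both times) and 7 at 24 h (5 lower and 2 higher), and 0 of 12 at any time in 6211. Of all regions with an adjusted p in the authors' deposited tables, 2.33% are lower and 0.123% higher at 2 h in 6086, 3.37% and 0.327% at 4 h, and 12.5% and 7.37% at 24 h. In 6211 the authors' deposited tables list 0.0049% lower and 0% higher at 0.5 h, 0.881% and 0.0147% at 1 h, and 2.9% and 0.379% at 2 h. In the authors' deposited table the broad downstream region has a log2 change of -0.76 at 24 h with an adjusted p of 1.1e-18, and the site 9.62 kb upstream one of 1.04 with an adjusted p of 0.00048. Over all regions the authors' calls number the same as those of the DESeq2 setting used here, for example 7125 lower and 4198 higher at 24 h in both. The authors' values are therefore not a check separate from that setting.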

How the data were processed

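The deposited files were 2 tables of raw read counts per region, 1 per experiment, and 6 tables of the authors' comparisons with log2 fold changes, p-values and adjusted p-values. Tools listed, per the submitters' processing notes, were DESeq2, DiffBind and deepTools, then Bowtie2, Genrich 0.6.1 and Trimmomatic 0.32, with builds hg19 and dm3. How the authors shifted reads for the transposase and what the dm3 build was used for are not given in the sources used here. TMM centres most regions on no change, so a shift common to all regions could not be measured.

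Counts were scaled by TMM (edgeR 4.0.16, R 4.3.3), filtered with filterByExpr and tested with the quasi-likelihood test, fitting each experiment's 8 libraries together and applying Benjamini-Hochberg adjustment to all regions, and the code was tested on simulated data. Differences of the 2 h effects were tested on regions matched with bedtools 2.31.1 at 50% reciprocal overlap. DESeq2 1.42.0, other scalings, no filter, fewer groups, a block for the library letter and leaving out each library served as alternatives. Regions of 401 bp in 6211 and regions of 130 to 1785 bp in 6086 measure different stretches of DNA. No pair of libraries agreed within sampling noise (chi-square per degree of freedom 1.34 to 2.66).

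The members and all lists were chosen with earlier results of these data known. Libraries are given one by one for regions at the gene or within 1000 bp before it, for called regions and for the highest region of each table. Several other regions, among them those 5.13 and 20.0 kb upstream, were chosen after their values were seen.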

Additional observations from a re-analysis of the deposited data

How the results depend on the processing

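Of 24 called values, 13 held in all 10 settings tried, and of 1120 recomputed values 53 changed sign, 0 of them a called one. With DESeq2, regions lower numbered 2 (4 in edgeR) at 2 h, 3 (5) at 4 h and 2 (4) from 2 to 24 h in 6086, where regions higher numbered 1 (2), and 0 (1) at 2 h in 6211. Over all regions DESeq2 called 1328 lower (2418 in edgeR), 1917 (3099) and 6366 (10020) in the same 6086 comparisons, 3328 (7276) higher from 2 to 24 h, and 1186 (2009) lower at 2 h in 6211. The member count at 2 h in 6211 was also 0 with library size only and with only the compared groups in the fit. From 0.5 to 2 h in 6211 regions lower numbered 1 (0) with median-ratio scaling and with only the compared groups. Leaving out 1 library gave 2 to 4 lower at 2 h and 3 to 6 at 4 h in 6086, and 2 to 3 lower and 1 to 2 higher from 2 to 24 h. In 6211 it gave 0 to 1 lower and 0 to 2 higher at 1 h (the 2 without DMSO library B), 1 to 2 lower at 2 h and 0 to 1 lower from 0.5 to 2 h. With library size only the summed level was 659 CPM at 24 h (653 with TMM) and 729 CPM in DMSO (736). With the library letter as a replicate block, regions lower numbered 2 at 2 h in 6211, and 3, 4 and 5 at 2, 4 and 24 h in 6086. Whether the letters pair the samples is not given. The deviations of library A from B correlated between groups at -0.15 to 0.16 in 6086 and -0.05 to 0.21 in 6211, which does not settle it. The causes of the differences between settings were not tested. With 2 libraries a group, the widest intervals within 6086 are those of its narrow regions, at 45 or more reads.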
